A study of Mus musculus with 2 samples.

Results

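The integrins and cadherins are the 2 best known families of adhesion receptors, and their transcripts were followed here through the cell classes of sorted mouse bone marrow stroma. All genes whose symbol is Itga or Itgb plus a subunit number or letter, or Cdh plus a number, were taken by name from the 32286 features counted. They numbered 49, of which 18 encode alpha integrin subunits, 8 beta subunits and 23 cadherins. The rule names the classical cadherins but also takes in Cdh13, Cdh16, Cdh17, Cdh23 and Cdh26, which lie outside that group. Members with at least 50 UMIs (unique molecular identifiers, 1 for each RNA molecule captured) over both libraries numbered 35, and these are described. They comprised all 18 alpha subunits, 6 beta subunits and 11 cadherins. Of the rest, Itgb4 had 45 UMIs, Itgb6 had 6, and the 12 other cadherins had 0 to 16, with Cdh7, Cdh9 and Cdh19 at 0.

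The study labelled cells that express Adipoq, the adiponectin gene, in order to identify marrow progenitors with adipogenic and osteogenic features. All mice were male and carried Adipoq-CreERT2, a Cre recombinase that tamoxifen switches on, with Ai9, a tdTomato reporter that a recombined cell and its progeny keep. At 8 weeks of age they were given tamoxifen by oral gavage for 3 days. Endosteal bone of femur and tibia was digested, and bright tdTomato+ cells were sorted after 24 h (pulse, 0.01% of total cells) or after 4 weeks (chase, 0.29% of total cells), when the mice were correspondingly older. Each group has 1 library, and how the 4 mice of the series were divided between them is not stated. Differences between pulse and chase therefore have no replicate check and no test, and each interval below is a 95% interval that covers counting error only.

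Integrins are pairs of an alpha and a beta subunit that tie the cytoskeleton to extracellular matrix or to counter-receptors on other cells. Itgb1 pairs with most matrix-binding alpha subunits, Itgav pairs with several beta subunits to bind matrix proteins that carry an RGD motif, and Itgb2 pairs with the leukocyte alpha subunits Itgal, Itgam, Itgax and Itgad. Classical cadherins bind the same cadherin on a neighbouring cell and are anchored to actin through catenins. In marrow, stromal integrins and their ligands are known for holding blood progenitors in place, and Cdh11 and Cdh2 are known as cadherins of the osteoblast lineage.

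The pulse matrix held 10608 barcodes and 89009901 UMIs, and the chase matrix 10046 barcodes and 82939659 UMIs, with medians of 7067.5 and 6592 UMIs per barcode. After filtering, 9212 pulse and 8335 chase cells were kept, of which 22 and 25 carried a barcode found in both libraries. Each cell was placed in a class by its marker genes, none of which is an integrin or cadherin, and 11 classes had at least 50 cells in each library. CAR cells are the Cxcl12-abundant reticular cells of marrow. The name is used here for cells placed by a list of CAR markers or by a list of osteogenic markers. They were split into adipogenic (3415 pulse and 3596 chase cells) and osteogenic (966 and 575) by whether more adipogenic or more osteogenic markers were on. An osteogenic cell thus need not have passed the list of CAR markers. Of these cells, 413 of 4381 in the pulse and 254 of 4171 in the chase library lay within 1 marker of the cut. Whether the split is a range or a boundary between types was not tested. The other classes outside the blood were osteoblasts (438 and 338), which are stromal, and endothelial cells (378 and 328), which were kept as a lineage of their own. Blood classes were present in both libraries in spite of the reporter sort, among them macrophages (1141 and 1002), neutrophils (598 and 403) and T or NK cells (416 and 311). Levels are CPM, the UMIs of a gene per 1000000 UMIs of the class and library, and since the assay counts transcript ends they were compared between classes and not between genes.

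Highest classes were taken among the 11 classes of at least 50 cells only, and some smaller classes had higher levels, as given at the end. Of the 35 members described, 28 were highest in the same class in both libraries. They were 9 in endothelial cells, 6 in T or NK cells, 3 each in adipogenic CAR cells, osteogenic CAR cells and macrophages, and 2 each in osteoblasts and neutrophils. The 7 whose highest class differed were Itgav, Itga9, Itgb3, Cdh1, Cdh23, Cdh24 and Itga2b. Levels of 20 CPM in some class of at least 50 cells were reached by 23 members. The other 12, which are Itga8, Itga7, Itgae, Itga3, Itga2b, Itgb8, Cdh1, Cdh13, Cdh23, Cdh24, Cdh6 and Cdh18, stayed at 18.4 CPM or below in every class of at least 50 cells. Reads of Itga6 and Itga1 overlap other genes on the same strand in the GENCODE vM21 annotation (Gm13663 and Gm13662, and Pelo), so their values are less certain.

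**Figure D1:**
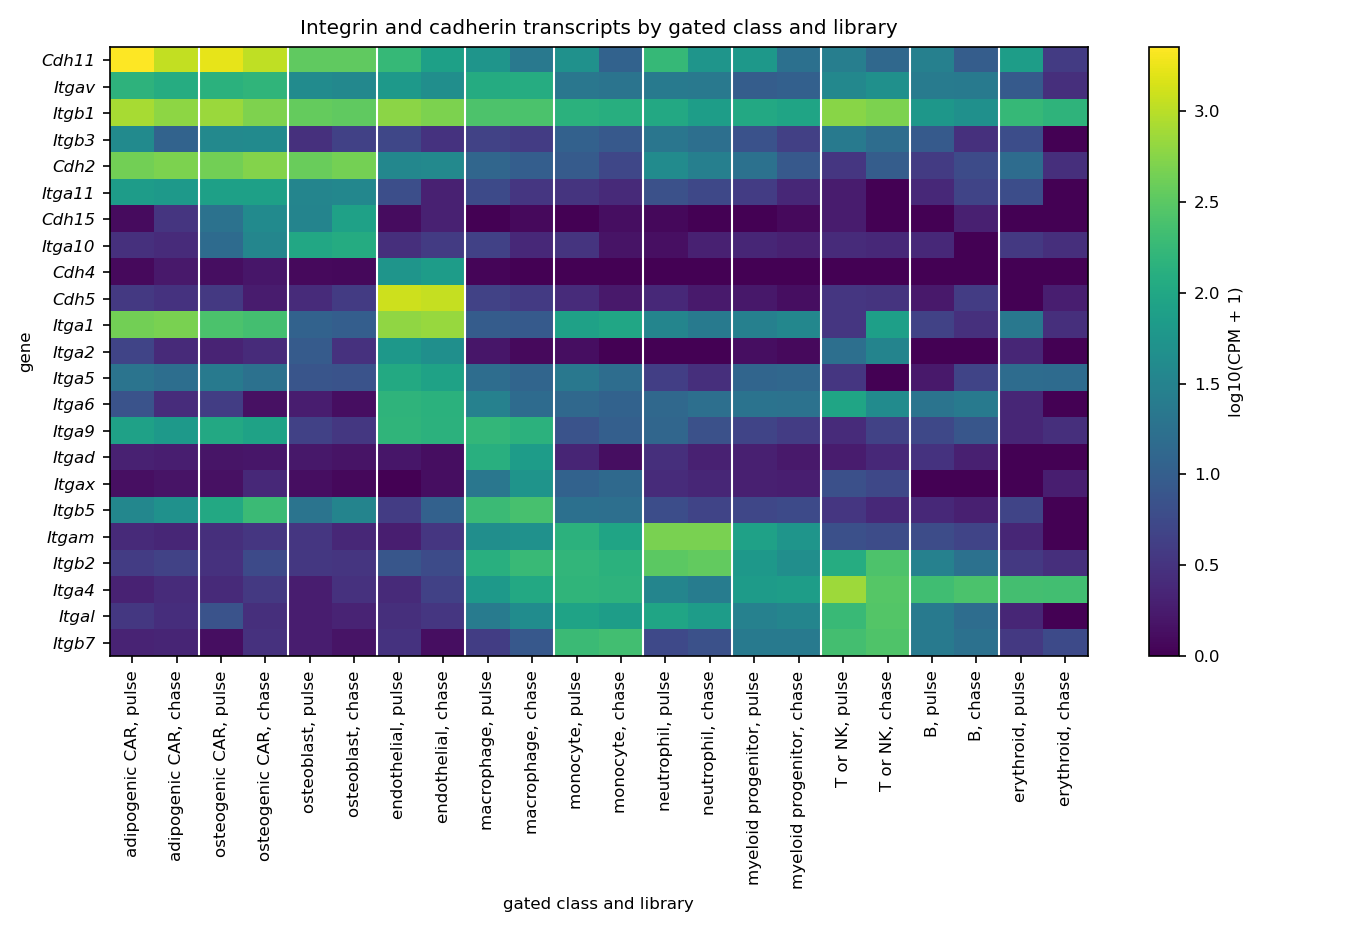
Level of the 23 members that reached 20 CPM (rows) in the 11 cell classes of the pulse and chase libraries (columns), colored by log10 of CPM plus 1. Cdh5 and Cdh4 stand in the endothelial columns, Itga10 and Cdh15 in the osteoblast and osteogenic CAR columns, and Itgad in the macrophage columns.

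Cdh11 (chr8:102632095-102785642, mm10, minus strand), the osteoblast cadherin of mesenchymal cells, was highest in adipogenic CAR cells, with osteogenic CAR cells next. Its level in adipogenic CAR cells was 2252 CPM in the pulse library (2234 to 2269) and 1117 in the chase library (1104 to 1131). Osteogenic CAR cells had 1675 (1649 to 1702) and 1059 (1031 to 1088), and osteoblasts 339 (328 to 351) and 337 (323 to 352). Both CAR classes thus stood above osteoblasts in both libraries. Shares of cells were also taken at equal depth, with every cell thinned to 2000 UMIs and shallower cells (112 pulse and 238 chase adipogenic CAR cells) left out. Thinned in this way, Cdh11 was found in 96.9% of adipogenic CAR cells in the pulse and 84.8% in the chase library, against 99.2% and 95.4% before thinning.

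Cdh2, the gene of N-cadherin, had similar levels in CPM in both CAR classes and in osteoblasts. Its level was 431 CPM in adipogenic CAR cells, 432 in osteogenic CAR cells and 390 in osteoblasts of the pulse library. In the chase library these were 486, 529 and 442. The pulse values of the 2 CAR classes did not differ beyond counting error, with intervals of 424 to 439 and 418 to 445. Endothelial cells had 34.2 and 37.3. CPM is relative to all UMIs of a class, and osteoblasts held more UMIs per cell. Their medians were 22314 (pulse) and 17966.5 (chase), against 8046 and 6549.5 in adipogenic CAR cells. The 7 osteoblast markers alone summed to 228308 and 215510 CPM in osteoblasts. Cdh2 UMIs per cell were not compared. Levels also varied inside a class, and a cluster of mostly adipogenic CAR cells, described below, had a lower pulse level.

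Cdh5 (chr8:104101625-104144511), which encodes the VE-cadherin of endothelial junctions, was the most restricted member with a high level. It stood at 1261 CPM in pulse (1224 to 1300) and 1148 in chase endothelial cells (1109 to 1188). The next class had 3.55 (macrophages) and 2.93 (B cells), 355-fold and 392-fold less. In cells thinned to 2000 UMIs it was found in 90.1% and 88.1% of endothelial cells. Cdh4, which encodes R-cadherin, was likewise endothelial, at 54.6 and 69.3 CPM, with at most 0.316 and 0.699 in the other classes of at least 50 cells. Cdh13, the cadherin without a cytoplasmic tail, had 17.7 and 12.5 in the same cells.

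Cdh15 and Itga10 were the members of the osteoblast end of the lineage. Cdh15 encodes M-cadherin, best known from skeletal muscle, and Itga10 encodes a collagen-binding alpha subunit best known from cartilage. Their promoters are shown because both genes followed the same class order, highest in osteoblasts, lower in osteogenic CAR cells and lowest in adipogenic CAR cells. The sequences are RefSeq promoters (GRCm38.p6, plus strand, 250 bases before to 50 after the start), and capitals mark matches to TGTGGT, the core of the Runx motif, on either strand (ACCACA on the other).
Cdh15, chr8:122848124-122848423: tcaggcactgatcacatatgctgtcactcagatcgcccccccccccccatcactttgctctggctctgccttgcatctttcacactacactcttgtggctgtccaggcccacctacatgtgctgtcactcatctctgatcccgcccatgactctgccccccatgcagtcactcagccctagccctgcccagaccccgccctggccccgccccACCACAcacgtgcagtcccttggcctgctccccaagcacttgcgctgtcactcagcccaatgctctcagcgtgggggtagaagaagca
Itga10, chr3:96645334-96645633: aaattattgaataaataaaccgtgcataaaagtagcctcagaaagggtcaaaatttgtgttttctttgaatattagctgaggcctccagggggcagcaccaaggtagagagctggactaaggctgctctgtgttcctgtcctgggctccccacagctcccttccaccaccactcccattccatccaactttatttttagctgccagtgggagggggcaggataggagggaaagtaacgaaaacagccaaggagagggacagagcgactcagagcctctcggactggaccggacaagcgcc
The Cdh15 promoter held 1 match and that of Itga10 held 0, while 16.8% of all 32851 RefSeq promoters of that length held at least 1. A match describes the letters only.

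Cdh15 (gene at chr8:122847966-122867397) stood at 31.1 CPM in pulse (27.7 to 34.9) and 82.9 in chase osteoblasts (75.8 to 90.5). Osteogenic CAR cells had 17.3 (14.7 to 20.1) and 39.6 (34.2 to 45.5), and adipogenic CAR cells 0.247 (0.0992 to 0.508) and 2.26 (1.70 to 2.94). The intervals of the 3 classes did not overlap in either library. Skeletal muscle markers were nearly absent from the same osteoblasts: 7 markers summed to 0.105 CPM in the pulse library, from 1 marker, and to 0 in the chase library.

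Itga10 (gene at chr3:96645584-96664519) stood at 102 CPM in pulse (95.8 to 109) and 115 in chase osteoblasts (107 to 124). Osteogenic CAR cells had 13.9 and 33.1, and adipogenic CAR cells 1.90 and 1.56. Itga10 transcripts were found in 83.1% and 78.4% of osteoblasts, or 22.0% and 19.2% after thinning to 2000 UMIs. In adipogenic CAR cells the thinned shares were 0.303% and 0.357%. Itga1, which encodes a collagen receptor subunit of the same group, ran the opposite way, at 429 and 482 CPM in adipogenic CAR cells, 252 and 226 in osteogenic CAR cells and 10.3 and 9.14 in osteoblasts. The third collagen receptor subunit, Itga11, differed less, with 69.8 and 64.3, 79.8 and 79.1, and 32.2 and 34.9 in the same order. Itga2, the remaining one, was highest in endothelial cells (60.6 and 46.3), with T or NK cells next (16.0 and 31.3).

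**Figure D2:**
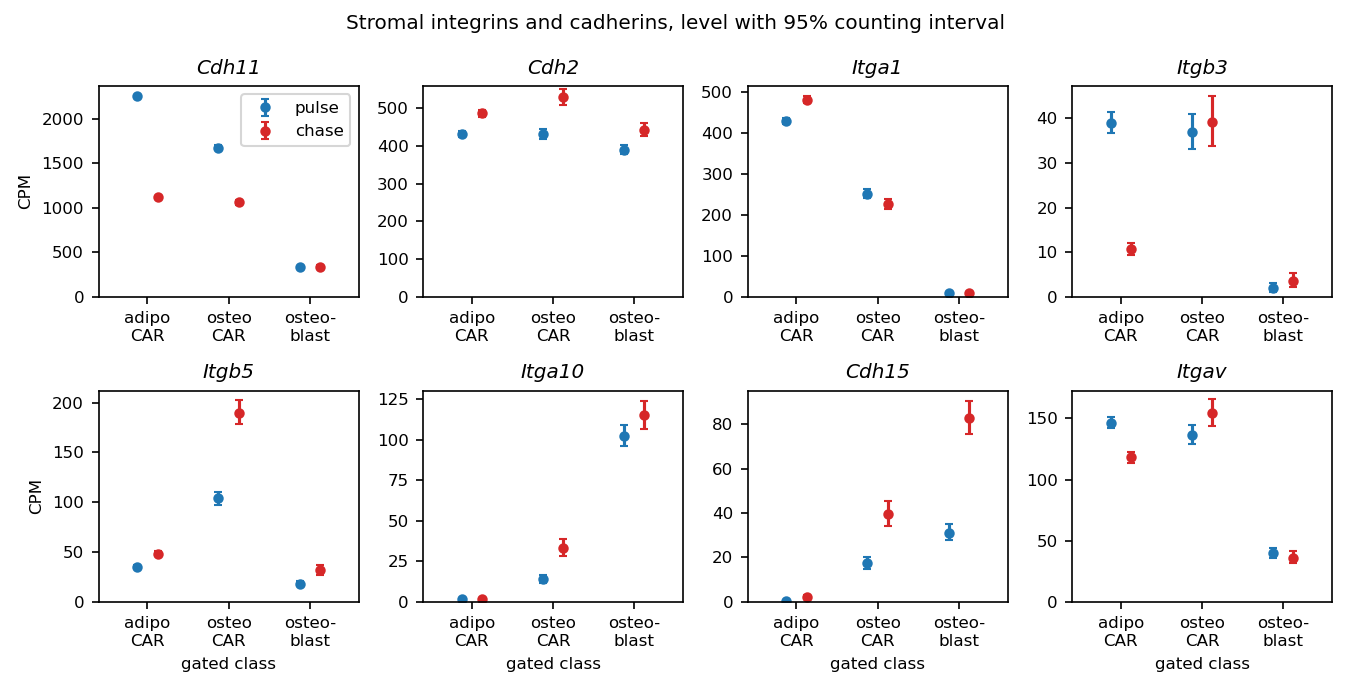
Level in CPM of 8 members in adipogenic CAR cells, osteogenic CAR cells and osteoblasts of the pulse and chase libraries, with 95% Poisson intervals that cover counting error only. Cdh15 and Itga10 were highest in osteoblasts and Itga1 was lowest there, while Cdh2 stayed between 390 and 529 in all 3 classes.

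The remaining matrix receptors were shared between stromal and blood classes. Itgb1 (chr8:128685654-128733200), the common beta subunit, stood at 825 and 605 CPM in adipogenic CAR cells, 701 and 502 in osteogenic CAR cells, 580 and 490 in endothelial cells, 570 and 493 in T or NK cells, and 367 and 339 in osteoblasts. Its lowest levels among classes of at least 50 cells were 58.4 and 46.9, in B cells. Itgav (chr2:83724397-83806916) stood at 147 (142 to 151) in adipogenic and 137 (129 to 144) in osteogenic CAR cells of the pulse library. Its highest class of at least 50 cells there was thus barely separated. In the chase library the order was the other way, at 118 (114 to 122) and 155 (144 to 166). Macrophages had 114 and 118.

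The partners of Itgav were split by class. Itgb5 (chr16:33829665-33949338), whose product binds vitronectin with Itgav, was highest in macrophages, at 191 and 239 CPM, followed by osteogenic CAR cells at 104 and 190. Adipogenic CAR cells had 34.8 and 48.1, and osteoblasts 18.2 and 31.6. Itgb3 (chr11:104608000-104670476), known from platelets and osteoclasts, stood at 39.1 in adipogenic and 36.9 in osteogenic CAR cells of the pulse library, but at 10.7 and 39.2 in the chase library. Osteoblasts had 1.90 and 3.49. Itgb8, the remaining described partner, reached at most 16.0, in pulse T or NK cells.

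Among the members highest in endothelial cells in both libraries were the integrin genes Itga1, Itga6, Itga5 and Itga2, and the weaker Itga3 (18.3 and 13.2 CPM) and Itga8 (9.31 and 8.01). Itga1 had 617 and 691 CPM there against 429 and 482 in adipogenic CAR cells, the next class. Itga6, a laminin receptor subunit, had 152 and 139, Itga5, the fibronectin receptor subunit, 108 and 85.0, and Itga2 60.6 and 46.3. Itga9, which binds tenascin and VCAM1, was shared by macrophages, at 163 (154 to 171) and 142 (134 to 150), and endothelial cells, at 154 (141 to 168) and 144 (130 to 158). Their order changed between the libraries, and the intervals overlapped in each.

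The leukocyte integrins separated the blood classes from one another. Itgam, Itgax and Itgad lie next to each other on chromosome 7 (genes at chr7:128062640-128118491, chr7:128129547-128150657 and chr7:128154376-128223816, plus strand), with Itgal on the same chromosome (chr7:127296260-127335138). The promoters of Itgam and Itgax are shown because these neighbours were highest in different classes. They come from the same RefSeq table, and capitals mark matches to GAGGAA on either strand (TTCCTC on the other). This is a form of the site bound by PU.1, a factor of myeloid cells, and shorter forms of the site are not marked.
Itgam, chr7:128062390-128062689: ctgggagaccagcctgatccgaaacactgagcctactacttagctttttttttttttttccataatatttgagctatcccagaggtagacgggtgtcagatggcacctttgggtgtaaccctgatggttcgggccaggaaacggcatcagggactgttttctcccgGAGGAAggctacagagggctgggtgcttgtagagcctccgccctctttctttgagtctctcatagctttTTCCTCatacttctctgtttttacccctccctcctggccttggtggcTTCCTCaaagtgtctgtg
Itgax, chr7:128129300-128129599: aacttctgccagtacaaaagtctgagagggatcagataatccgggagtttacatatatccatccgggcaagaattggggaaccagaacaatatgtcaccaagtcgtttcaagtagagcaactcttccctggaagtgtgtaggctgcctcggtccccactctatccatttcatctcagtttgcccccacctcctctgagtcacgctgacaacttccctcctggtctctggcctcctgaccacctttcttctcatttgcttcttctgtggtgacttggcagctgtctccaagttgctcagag
The Itgam promoter held 3 matches and that of Itgax held 0, and 28.3% of the 32851 RefSeq promoters held at least 1. Of the 35 members described, 22 had a promoter entry, and Itgal and Itgad did not.

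Itgam, the alpha subunit of the complement receptor of neutrophils, stood at 478 (460 to 496) and 476 (455 to 498) CPM in neutrophils. Monocytes had 140 and 89.9, and macrophages 44.7 and 49.4. Itgad, whose product also binds VCAM1, was almost exclusive to macrophages among the classes of at least 50 cells, at 128 and 71.2, with at most 2.14 and 1.46 elsewhere. Itgax, the CD11c gene, was highest in macrophages too, at 20.2 and 53.2, with monocytes, at 10.3 in the pulse library, as the next class in both. Itgb2, the shared beta subunit, stood at 320 and 356 in neutrophils, 159 and 137 in monocytes, 131 and 188 in macrophages, and 117 and 257 in T or NK cells.

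In lymphoid cells the members were the homing integrins. Itgal, the alpha subunit of LFA-1, stood at 187 and 282 CPM in T or NK cells, with 91.3 and 71.4 in neutrophils. Itga4, which binds VCAM1 and fibronectin, had 717 and 292 in T or NK cells, 213 and 252 in B cells and 225 and 218 in erythroid cells. Itgb7, the gut-homing beta subunit, had 221 (196 to 249) and 268 (242 to 297) in T or NK cells and 191 (176 to 207) and 216 (205 to 228) in monocytes, which were separated beyond counting error in the chase library but not in the pulse library.

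**Figure D3:**
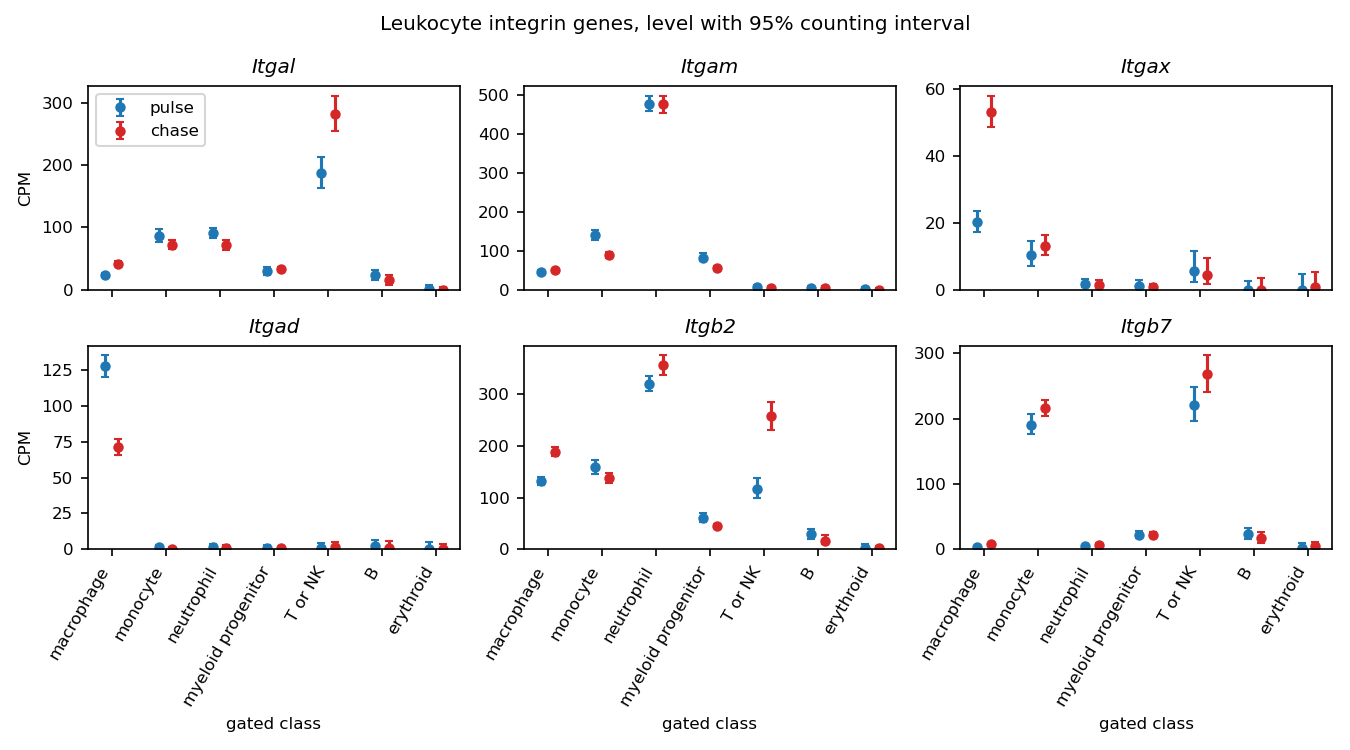
Level in CPM of 6 leukocyte integrin genes in 7 blood classes of the pulse and chase libraries, with 95% Poisson intervals. Itgam and Itgb2 were highest in neutrophils, Itgad and Itgax in macrophages, and Itgal and Itgb7 in T or NK cells.

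Osteogenic and adipogenic CAR cells were compared inside each library, the comparison closest to the study's aim. A gene was called when the levels differed by at least 1.5-fold and the interval of their ratio excluded 1, among genes with at least 50 UMIs in the 2 classes. In the pulse library 10 of 24 members measured were called, 4 higher and 6 lower in osteogenic cells, beside 18.8% of all 12185 genes measured (10.1% higher and 8.67% lower). In the chase library 8 of 20 were called, 5 higher and 3 lower, beside 22% of 11903 genes (10.5% higher and 11.5% lower). The median log2 ratio over the members was -0.04 and 0.23, and over all genes 0.03 and 0.03.

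Cdh15, Itga10 and Itgb5 were higher in osteogenic CAR cells in both libraries. For Cdh15 the ratio was 70.0 (33.2 to 177) in the pulse and 17.5 (12.9 to 24.0) in the chase library, the first resting on 7 UMIs in adipogenic cells. For Itga10 it was 7.31 (5.29 to 10.2) and 21.2 (14.8 to 31.0), and for Itgb5 2.98 (2.72 to 3.26) and 3.95 (3.62 to 4.30). Osteoblast markers moved in the same direction between the classes, with 7 of 7 detected and sums of 2456 in adipogenic against 9198 CPM in osteogenic cells of the pulse library, and 4526 against 10853 in the chase library. Their part in the Cdh15 and Itga10 ratios was not tested. For Itgb5, macrophage markers (7 of 7 detected) summed to 64.4 CPM in osteogenic CAR cells of both libraries, against 14503 and 14901 in macrophages.

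Itga1, Itga3 and Itga8 were lower in osteogenic CAR cells in both libraries. Itga1 was 1.70-fold lower in the pulse and 2.13-fold lower in the chase library. Itga3, a laminin receptor subunit, was 1.92-fold and 2.48-fold lower, and Itga8, the nephronectin receptor subunit, 1.94-fold and 3.14-fold lower, both from levels below 10 CPM. In the pulse library Itga2 (3.34-fold), Cdh13 (2.29-fold) and Itga6 (2.06-fold) were also lower, and Itgal was 2.45-fold higher, all at 6.31 CPM or less in both classes.

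Itgb3 and Cdh24 were called in the chase library alone, and the difference between the libraries was not tested. The osteogenic to adipogenic ratio of Itgb3 was 0.944 (0.835 to 1.07) in the pulse library and 3.66 (3.03 to 4.43) in the chase library, where the adipogenic level was the lower one. Cdh24 was 2.33-fold higher in osteogenic cells of the chase library, at 6.22 against 2.67 CPM. Cdh11, with ratios of 0.744 and 0.948, and Cdh2 were not called in either library.

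**Figure D4:**
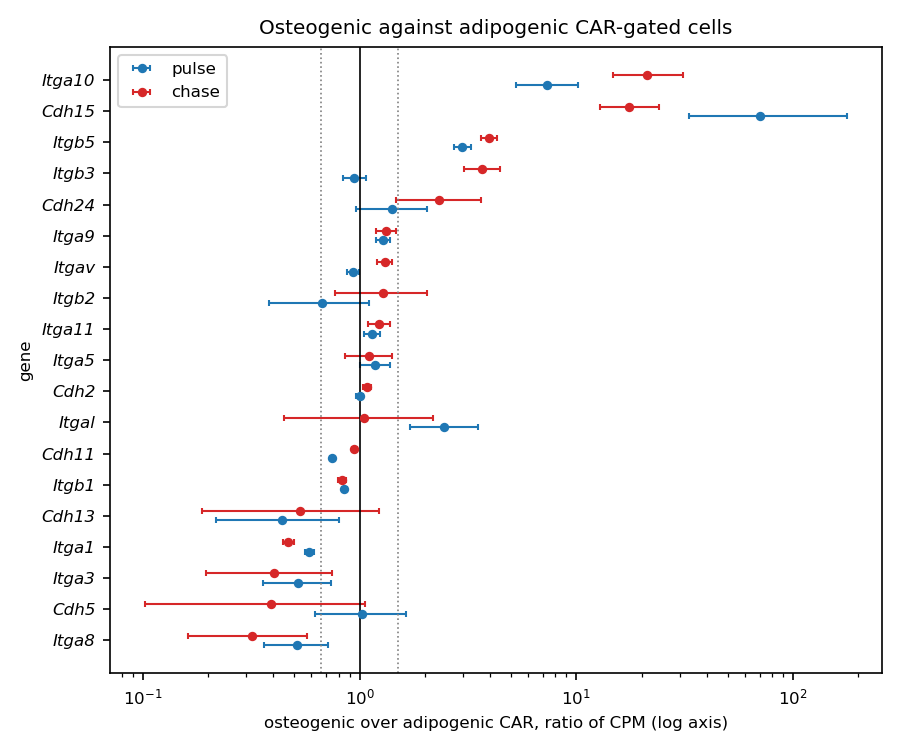
Ratio of the level in osteogenic to that in adipogenic CAR cells, on a log axis, for 19 members measured in both libraries, with 95% intervals that cover counting error only; dotted lines mark 1.5-fold. Cdh15, Itga10 and Itgb5 lie to the higher side in both libraries, and Itgb3 only in the chase library, where its ratio was 3.66.

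The partners of these receptors were counted from 3 lists of 7 catenins, 25 integrin adaptors and 34 integrin ligands. In osteogenic against adipogenic CAR cells, 1 of 4 catenins measured was higher in the pulse library. This was Ctnnb1, the beta-catenin gene, at 326 against 200 CPM, with chase values of 528 and 226. In the chase library Jup, the plakoglobin gene, was also called, 1.79-fold lower, while in the pulse library it stood at 30.4 against 40.5 and was not called. Of the adaptors, which link integrin tails to actin, none of 21 and 22 was higher, and 3 and 2 were lower, beside the 10.1% and 10.5% of all genes that were higher and the 8.67% and 11.5% that were lower. Tns1, a tensin gene, had the largest difference, with pulse values of 24.1 against 83.9 and chase values of 35.9 against 124.

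Of 26 integrin ligands measured in each library, 6 were called higher and 8 lower in pulse cells, and 4 higher and 12 lower in chase cells, beside the same shares of all genes. Postn, the gene of periostin, a matrix protein bound by Itgav integrins, had 205 CPM in pulse osteogenic CAR cells and 1.30 in pulse adipogenic ones, with chase values of 495 and 3.37. Fn1, the fibronectin gene, was 6.35-fold and 19.2-fold higher. Npnt, the gene of nephronectin, was 3.11-fold higher in the pulse library. Vcam1, the ligand of Itga4, was 2.90-fold lower there, and Nid1 and Icam1 were 4.63-fold and 4.49-fold lower in the chase library. The ligands' median log2 ratio was -0.36 and -0.54.

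Chase cells were then set against pulse cells within each class. In adipogenic CAR cells 5 of 27 members measured were called, 1 higher and 4 lower in the chase library, beside 13.1% of all 12600 genes (7.31% higher and 5.81% lower). Cdh11 was 2.02-fold lower (1.99 to 2.04), from 2252 to 1117 CPM. Itgb3 was 3.66-fold lower (3.19 to 4.20), from 39.1 to 10.7. Itga6 and Itga2 were 3.84-fold and 2.55-fold lower, from 6.31 and 3.88, and Cdh15 was 9.16-fold higher (4.16 to 23.8), from 7 to 55 UMIs. Beside Cdh15, the sum of the 7 osteoblast markers in these cells was 2456 in the pulse and 4526 in the chase library, and its part was not tested. The median log2 ratio over the members was -0.29, and over all genes -0.02.

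Other abundant members of adipogenic CAR cells stayed within 1.5-fold. The chase to pulse ratio was 0.733 for Itgb1, 0.806 for Itgav, 1.12 for Itga1, 1.13 for Cdh2 and 1.38 for Itgb5. Their counting intervals all excluded 1, but with 1 library a group the spread between mice is not known.

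Different clusters held most adipogenic CAR cells in the 2 libraries, so the members were also read within clusters found without them. A cluster led by Tnfsf11 held 2720 of these cells in the pulse and 93 in the chase library, and a cluster led by Fmo2 held 100 and 2208. Clusters led by Cxcl9 (289 and 856 cells) and by Adipoq and Cxcl12 (215 and 341) were present in both. Ratios inside a cluster cover all of its cells, whatever their class. The chase to pulse ratio of Cdh11 was 0.618 (0.581 to 0.658) in the Tnfsf11-led, 0.599 (0.564 to 0.636) in the Fmo2-led, 0.666 (0.641 to 0.692) in the Cxcl9-led and 0.492 (0.452 to 0.534) in the Adipoq-led cluster. Cdh11 was thus lower in the chase library in all 4, by less than in the whole class except in the last.

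For Itgb3 the ratio inside the clusters was 0.450 (0.245 to 0.759), 0.563 (0.328 to 1.05), 0.596 (0.344 to 1.06) and 0.638 (0.298 to 1.33) in the same order, with 14 to 38 UMIs in the smaller sums, so the difference was smaller than in the whole class and clear of counting error only in the first. Itgb1 was closer to even within clusters, at 0.836, 0.984, 0.872 and 0.853. Cdh2 had a ratio of 1.17 to 1.31 in the Tnfsf11-led, Fmo2-led and Adipoq-led clusters, and in the Cxcl9-led cluster the ratio was 2.04 (1.85 to 2.26), from 206 to 422 CPM.

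In osteogenic CAR cells 7 of 17 members were called, 5 higher and 2 lower in the chase library, beside 12.3% of 10929 genes (5.49% higher and 6.8% lower). Itga10 was 2.38-fold (1.88 to 3.02), Cdh15 2.29-fold (1.85 to 2.83) and Itgb5 1.83-fold higher (1.67 to 2.00). Transcripts of Itgb5 were found in 15.6% of pulse and 25.2% of chase cells after thinning to 2000 UMIs, those of Cdh15 in 2.28% and 5.25%, and those of Itga10 in 1.95% and 4.71%. The 7 osteoblast markers, whose own class had the highest Cdh15 and Itga10 levels, summed to 9198 CPM in these cells of the pulse library and 10853 in those of the chase library, and their part was not tested. Their median sum per cell was 38.6 and 66.7 UMIs per 10000. Itgb8 and Cdh6 were 2.11-fold and 1.90-fold higher, from 28 and 25 UMIs; Itgb8 had a ratio of 1.48 with classes from clustering, and Cdh6 fell below 50 UMIs in several alternatives. Cdh11 was 1.58-fold lower (1.53 to 1.63), and Itgb3 did not differ beyond counting error, with a ratio of 1.06 (0.886 to 1.27). Over the members the median log2 ratio was 0.09 and over all genes -0.03.

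Itgal was 3.44-fold lower (1.70 to 7.90) in chase osteogenic CAR cells, from 59 UMIs in 52 of 966 cells to 9 UMIs in 9 of 575. The 9 markers of neutrophils, which carry Itgal, summed to 604 (pulse) and 298 CPM (chase) in these cells, against 387052 and 406718 in neutrophils. Itgal itself stood at 6.22 and 1.81 CPM in these cells, against 91.3 and 71.4 in neutrophils. T cell markers summed to 4.95 and 11.6 in the osteogenic CAR cells. The part of either in the Itgal difference was not tested.

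Most osteogenic CAR cells lay in 1 cluster in both libraries, led by Spp1 and Mmp13 (752 and 517 cells), with 180 further pulse cells in the Tnfsf11-led cluster. Over all cells of the Spp1-led cluster (847 and 609) the ratio was 2.15 for Itga10 and 1.63 for Itgb5. It was 1.88 (1.52 to 2.32) for Cdh15 and 0.678 for Cdh11, the latter within 1.5-fold.

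In osteoblasts 3 of 11 members were called, 2 higher and 1 lower, beside 10.5% of 9412 genes (6.83% higher and 3.63% lower). Cdh15 was 2.67-fold higher (2.30 to 3.09) and was found in 38.1% of pulse and 57.4% of chase osteoblasts, or 6.48% and 15.0% after thinning. Itgb5 was 1.73-fold higher (1.40 to 2.14). Itga2 was 4.07-fold lower (2.20 to 8.22), from 77 UMIs in 36 cells to 12 UMIs in 6 cells. A cluster led by Col11a1 and Bglap held 432 of 438 pulse and 305 of 338 chase osteoblasts. Another, led by Prg2 and Mpo and without pulse cells, held 26 of the chase osteoblasts. Their part in these differences was not tested. Cdh11 and Itga10, with ratios of 0.994 (0.940 to 1.05) and 1.13 (1.02 to 1.24), were not called, unlike in osteogenic CAR cells, and the difference between the classes was not tested. Members had a median log2 ratio of -0.01 here, against 0.05 over all genes.

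In endothelial cells 2 of 16 members were called, 0 higher and 2 lower, beside 6.54% of 9189 genes (3.61% higher and 2.93% lower). These were Cdh11, at 175 and 78.7 CPM (2.22-fold, 1.90 to 2.60), and Itga2b, the platelet integrin subunit, at 12.3 and 3.48 (3.53-fold, 1.74 to 7.91). The Itga2b call rests on 41 and 10 UMIs and fell below the minimum of 50 with a stricter gate, with more doublets removed and under 5% mitochondrial UMIs. Of 6 megakaryocyte or platelet markers, 4 were detected in the pulse and 2 in the chase cells, with sums of 36.3 and 29.3, and their part was not tested. Cdh5 was not called, with a ratio of 0.910 (0.869 to 0.953). Members here had a median log2 ratio of -0.30, against -0.05 over all genes.

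In macrophages 8 of 19 members were called, 4 higher and 4 lower in the chase library, beside 9.45% of 10453 genes (3.63% higher and 5.83% lower). The median log2 ratio was -0.10 over the members and -0.12 over all genes, and every called member kept its call when levels were scaled to the median of all genes. Itgax was 2.64-fold (2.22 to 3.15), Itgb7 2.36-fold (from 3.09 to 7.32 CPM), Itgal 1.72-fold (1.45 to 2.04) and Itga4 1.61-fold higher (1.45 to 1.79). Itgad was 1.79-fold (1.63 to 1.97), Itga6 2.09-fold (1.69 to 2.60), Cdh11 2.53-fold (2.14 to 2.99) and Itga11 1.93-fold lower (1.13 to 3.39). The Itga11 call, from 40 to 23 UMIs, was lost with a stricter gate (0.607), with classes from clustering (0.696) and with more doublets removed (0.619). Chase macrophages were deeper, with a median of 9507.5 against 7098 UMIs per cell. After thinning, Itgax was found in 3.12% of pulse and 8.93% of chase cells, and Itga4 in 14.5% (12.5 to 16.7) and 15.9% (13.6 to 18.3), which did not differ beyond counting error.

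Macrophages fell mainly into a cluster led by Fcna (664 pulse and 454 chase cells) and one led by Ccl8 (423 and 506). Over all cells of the clusters (731 and 481, then 462 and 549) the chase to pulse ratio of Itgax was 2.13 and 2.70. That of Itga6 was 0.411 and 0.388, lower in the chase library in both. Itgad belonged to the Fcna-led cluster, at 226 and 166 CPM (0.734), against 3.66 and 5.57 in the Ccl8-led cluster. Itga4 stayed within 1.5-fold in each, at 1.35 and 1.43. Itgal had 2.84 in the first and 1.18 in the second.

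T or NK cells held the largest chase to pulse ratio in the classes compared, although different clusters held most of them in the libraries. A cluster led by Tcf7 and Ctla4 had 386 pulse and 99 chase cells, and one led by Ccl5 and Ifng had 23 and 191. Of 10 members measured 7 were called, 4 higher and 3 lower in the chase library, beside 15.9% of 5829 genes (9.33% higher and 6.6% lower). Itga1 went from 3 UMIs to 106, or 2.40 to 77.3 CPM, a ratio of 32.3 (10.7 to 159). Over all cells of a cluster, whatever their class, Itga1 stood at 2.42 and 7.13 in the Tcf7-led cluster (470 and 115 cells). In the Ccl5-led cluster (48 and 217 cells) it stood at 22.7 and 114.

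The other members called in T or NK cells were Itgb2 (2.19-fold), Itga2 (1.96-fold) and Itgal (1.51-fold), which were higher, and Itga4 (2.46-fold), Itga6 (2.25-fold) and Cdh11 (2.13-fold), which were lower. Inside the clusters the ratio of Itga4 was 0.470 and 0.609 and that of Itgal 0.931 and 1.52, the Tcf7-led cluster first. Itga6 had 0.870 and 0.683 there, within 1.5-fold in both.

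In the other blood classes compared, at most 3 members were called, out of the smaller numbers measured there. Monocytes, most of which lay in clusters led by Ctsg (133 and 269 cells) or Ms4a4c (132 and 131), had 3 of 16 called, all lower in the chase library (3.57% of 8970 genes were lower): Itgam (1.55-fold), Cdh11 (4.62-fold) and Cdh2 (1.92-fold). Myeloid progenitors had 3 of 14, also Itgam (82.1 to 54.6), Cdh11 (3.73-fold) and Cdh2 (2.20-fold), beside 3.1% of 9443 genes lower. Neutrophils had 3 of 12, Cdh11 (3.14-fold), Itga9 (2.01-fold) and Cdh2 (1.52-fold), beside 9.52% of 8109 genes lower. In B cells 0 of 4 were called, beside 30.8% of 5710 genes. Itgam was highest in neutrophils, whose 9 markers summed to 6464 CPM in pulse and 961 in chase monocytes. Their part in the Itgam difference of monocytes was not tested. The Cdh11 and Cdh2 values of monocytes, myeloid progenitors and neutrophils are set against Adipoq next.

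Cdh11 in classes outside the stroma was set against Adipoq, the gene that marks the most abundant sorted cells. Adipoq itself stood at 51.8 (pulse) and 40.2 CPM (chase) in macrophages, 37.4 and 18.1 in monocytes and 154 and 131 in neutrophils. It stood at 23.2 and 23.3 in T or NK cells and 164 and 191 in endothelial cells. In the pulse library there were 1.12 Cdh11 UMIs for each Adipoq UMI in adipogenic CAR cells, and 1.05 in macrophages, 1.29 in monocytes, 1.14 in neutrophils, 1.14 in T or NK cells and 1.06 in endothelial cells. In the chase library the same classes had 0.534 in adipogenic CAR cells and 0.533, 0.579, 0.427, 0.531 and 0.412. The ratio in these classes was thus close to that of adipogenic CAR cells in each library and was lower in the chase library together with it. The 9 CAR markers summed to 2473 and 2017 CPM in macrophages and 3590 and 3932 in endothelial cells, against 35384 and 42783 in adipogenic CAR cells, with 9 of 9 detected in each. Whether endothelial and blood classes express Cdh11 themselves was not tested. The part of CAR cell RNA in their Cdh11 levels and chase to pulse differences was not tested either. Myeloid progenitors (1.02 and 0.411) and B cells (0.907 and 0.529) were alike, and erythroid cells had 1.49 and 0.158, the latter from 3 Cdh11 UMIs. Osteogenic CAR cells (2.52 and 2.50) and osteoblasts (9.22 and 10.0) had ratios of their own.

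The same ratio separated other members. Cdh2 per Adipoq UMI was 0.215 and 0.232 in adipogenic CAR cells, close to 0.228 and 0.223 in macrophages and 0.208 and 0.195 in endothelial cells. Monocytes had 0.217 and 0.234, neutrophils 0.262 and 0.204 and myeloid progenitors 0.283 and 0.194. The part of CAR cell RNA in the Cdh2 calls of these 3 classes was likewise not tested. Itga1 per Adipoq UMI was 0.214 and 0.230 in adipogenic CAR cells but 3.75 and 3.62 in endothelial cells. Monocytes had 2.20 and 5.28 and chase T or NK cells 3.31, also above adipogenic CAR cells.

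**Figure D5:**
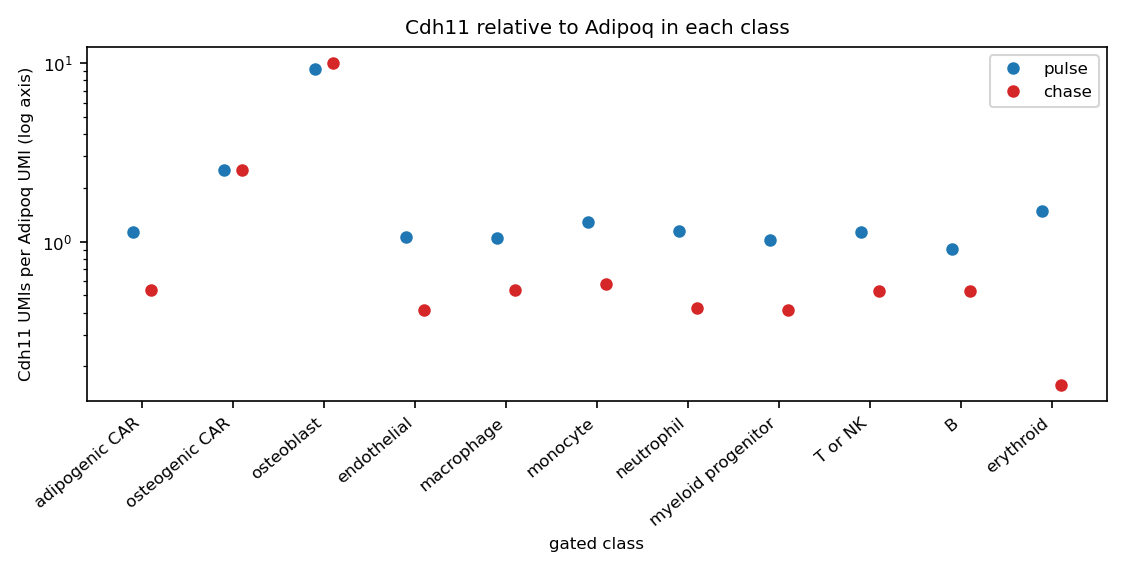
Cdh11 UMIs per Adipoq UMI in each cell class of the pulse and chase libraries, on a log axis. The endothelial, macrophage, monocyte, neutrophil and T or NK points lie near those of adipogenic CAR cells (1.12 and 0.534), while osteogenic CAR cells (2.52 and 2.50) and osteoblasts (9.22 and 10.0) lie above.

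The partner lists were counted for chase against pulse as well. None of the 4 catenins measured was called in adipogenic CAR cells, osteoblasts, endothelial cells or macrophages, and in osteogenic CAR cells Ctnnb1 was 1.62-fold higher. In adipogenic CAR cells 2 of 23 adaptors were higher and 2 lower, the latter being the focal adhesion genes Vcl (164 to 89.8 CPM) and Zyx (48.1 to 28.8). In osteogenic CAR cells Vcl was 1.73-fold lower and Tns2 1.64-fold higher. The other classes had 3 of 18 adaptors higher and 0 lower (osteoblasts), 1 of 20 higher and 0 lower (endothelial cells), and 0 of 22 higher and 4 lower (macrophages). The shares of all genes called in these comparisons, against which the counts are read, ranged from 3.61% to 7.31% higher and from 2.93% to 6.8% lower.

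Among the ligands, in adipogenic CAR cells 3 of 27 were higher and 8 lower, beside 7.31% and 5.81% of all genes. Those lower included Fn1 (55.6 to 13.9), Col6a2 (689 to 378) and Ccn2 (767 to 445), while Icam1, the ligand of Itgal and Itgam, was 3.37-fold higher (81.8 to 276). In osteogenic CAR cells 2 of 24 were higher and 12 lower, beside 5.49% and 6.8% of all genes, with the basement membrane genes Col4a1 (736 to 224), Col4a2 (417 to 142) and Nid1 (123 to 47.4) lower and Postn (205 to 495) higher. Osteoblasts had 1 of 22 higher, Postn at 3.30-fold, and 5 lower, beside 6.83% and 3.63%, and endothelial cells 1 of 22 higher and 4 lower, beside 3.61% and 2.93%. In macrophages 1 of 19 was higher and 11 lower, beside 3.63% and 5.83%, led by Col6a2 (34.5 to 10.3), Col4a1, Fbn1 and Ccn2, which are matrix genes of the stroma. The 9 CAR markers in macrophages summed to 2473 and 2017 CPM in the same libraries, and their part in these ligand values was not tested. The median log2 ratio of the ligands was -0.32, -0.52, -0.25, -0.24 and -0.67 in the order adipogenic CAR, osteogenic CAR, osteoblast, endothelial and macrophage.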

How the data were processed

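The authors deposited unnormalised UMI counts for every gene and barcode, made with the 10x 3' kit version 3.1 per the labels' protocols. Per the file headers Cell Ranger 6.0.2 made these counts; the submitters' processing notes name 2.1.1, and the genome build mm10. Cells with at least 1000 UMIs, at least 500 genes and under 10% mitochondrial UMIs were kept, less those marked by Scrublet per library with its automatic threshold (scanpy 1.11.5; 178 pulse and 110 chase cells). A marker was on in a cell with at least 2 UMIs, at least 1 per 10000 and no less than the mean of all cells. A class needed at least 3 markers on, and took the cell if the largest share of its markers was on. Cells where another lineage reached 0.5 of that share (427 and 353) or with no class (382 and 252) were left out. A cell placed by the CAR or the osteogenic list was osteogenic if more of 7 osteogenic than of 7 adipogenic markers were on, and otherwise adipogenic. This gate was set after the data were seen, and the members and lists were chosen with earlier results of these data known. Clusters came from joint clustering without the members (2000 variable genes, 30 components, 15 neighbours, Leiden at resolution 1). Levels carry exact Poisson intervals, shares exact binomial (Clopper-Pearson) intervals and ratios exact intervals conditional on the total, all at 95%. Log2 ratios carry a prior count of 0.5. All members called are named, and levels are named for members that reached 20 CPM; up to 4 genes per list with the largest ratio were eligible. Gene positions are from GENCODE vM21. The alternatives tried are in the closing section. The ratio and its call rule were tested on simulated counts, and the other steps were not tested in this way.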

Additional observations from a re-analysis of the deposited data

Results flagged for a closer look

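Itgal moved in opposite directions in 2 classes between the pulse and chase libraries. Its chase to pulse ratio was 1.72 in macrophages and 0.291 in osteogenic CAR cells, and the difference between these ratios was not tested.

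In classes with fewer than 50 cells in a library, which entered no comparison, members that were low elsewhere or highest in these classes were found. Cdh1, the E-cadherin gene, stood at 219 CPM in 16 pulse and 202 in 10 chase basophil or mast cells, and at no more than 0.901 in any class of at least 50 cells. Itga2b stood at 386 and 260 in the same cells, where the 6 megakaryocyte or platelet markers summed to 10.4 and 0. Itgb1 stood at 974 in 4 pulse and 1248 in 20 chase pericyte or smooth muscle cells.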

How the results depend on the processing

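The 43 calls of members in the 7 main comparisons were recomputed with a stricter gate, classes from clustering, no Scrublet removal, doublets removed at 0.8% per 1000 barcodes, under 5% mitochondrial UMIs, 2 other scalings, cells thinned to 2000 UMIs, a minimum of 20 UMIs and, chosen after seeing the data, without barcodes shared by the libraries. Those in T or NK cells, monocytes, neutrophils, myeloid progenitors and B cells were not. Of 430 values, 390 kept their direction and call, 12 kept the direction but lost the call, none reversed, and 28 (19 of them thinned) fell below the minimum of UMIs and could not be called. Lost calls were Itga11 in macrophages (stricter gate, clustering, 0.8% doublets), Cdh11 (0.678) and Itgb8 (1.48) in osteogenic CAR cells and Itga4 (1.47) in macrophages with clustering, Cdh13 under 5% mitochondrial UMIs, and Itga6 and Itga4 in macrophages and Itga8, Itga6 and Itga3 between pulse CAR classes when thinned. Endothelial calls (2) were 1 with the stricter gate, 1 with 0.8% doublets, 1 under 5% mitochondrial UMIs, 4 with clustering and 4 at 20 UMIs. Osteogenic CAR calls (7) were 4 with clustering, 4 under 5% mitochondrial UMIs and 4 when thinned. Thinning, which leaves fewer UMIs and so fewer genes to call, gave 3 in adipogenic CAR cells (5), 1 in osteoblasts (3), 4 in macrophages (8), and 3 (10) and 5 (8) between CAR classes of the pulse and chase libraries. Apart from values below the minimum, the cause was not tested. Members highest in the same class in both libraries numbered 25 to 30. No paired analysis was possible because each group has 1 library.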

Other observations

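Some small classes had members not described above. The 31 pulse and 28 chase osteoclasts stood at 207 and 247 CPM for Itgav, and the 22 and 26 dendritic cells at 61.5 and 118 for Cdh1, and at 261 and 405 for Itga4. Pericyte or smooth muscle cells stood at 32.5 and 182 for Itga7, the laminin receptor subunit known from muscle, with 4 and 20 cells. The 4 pulse cells held 30790 UMIs over all genes, so their value rests on very few Itga7 UMIs.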
